A study of Homo sapiens with 6 samples.

Results

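The genes described are 7 adhesion G protein-coupled receptors (adhesion GPCRs) of white blood cells, ADGRE1, ADGRE2, ADGRE3, ADGRE5, ADGRG1, ADGRG3 and ADGRG5, taken by symbol from a table of 26810 gene rows. All 7 had a row. The set was chosen by the spike-in scaled values of ADGRE3, whose rise in these libraries was already known, so the difference between the guides is given for all 7 as a description, with no p-value. Poly(A)-selected RNA had been sequenced from U-937, a human monocyte-like line. The labels list a KMT2A-MLLT10 fusion for this line, an entry that was not checked here. All libraries came from 1 Cas9-expressing clone that had been transduced with lentivirus, selected with blasticidin and hygromycin B, and harvested at day 8 to 10. The 3 sgMETTL1.3 libraries carried a guide against METTL1, the catalytic subunit of a tRNA methyltransferase, and the 3 sgNS libraries a control guide. With a single METTL1 guide in a single clone, and no rescue, METTL1 loss and other effects of the guide or clone cannot be told apart. Nothing in the labels says that replicates were grown as separate cultures, so the errors and p-values cover only how these libraries vary, possibly for technical reasons.

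Adhesion GPCRs carry a long extracellular region, in front of the membrane-spanning part, that ends in a domain able to cut the protein itself. The cut fragments stay attached to each other, and a short stretch exposed at the cut can act as a tethered agonist of the receptor. The ADGRE group carries EGF-like repeats that bind ligands on other cells or in the matrix, and in humans its members mark monocytes, macrophages and granulocytes. The ADGRG members described here are known from cytotoxic lymphocytes and granulocytes, and ADGRG1 also from primitive leukemia cells.

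The gene loci lie in 3 places of GRCh38, as annotated by GENCODE release 29. ADGRE5 (chr19:14380501-14408725, plus strand), ADGRE3 (chr19:14619117-14690027, minus strand) and ADGRE2 (chr19:14732393-14778541, minus strand) form a cluster on chromosome 19. ADGRE1 lies apart on the same chromosome (chr19:6887566-6940459, plus strand). ADGRG5 (chr16:57542421-57591681), ADGRG1 (chr16:57610652-57665580) and ADGRG3 (chr16:57668187-57689378) follow each other on the plus strand of chromosome 16.

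The RefSeq promoter table (GRCh38.p14) held 3 of the 7 genes, and the windows of ADGRE3 and ADGRE1, the pair of receptors that rose, are shown because both rose. Each is 300 bases long, runs 5′ to 3′ on the gene's strand, and covers the start site. The windows are chr19:14674795-14675094 (minus strand) for ADGRE3 and chr19:6887329-6887628 (plus strand) for ADGRE1. Capitals mark matches to any of 5 short motifs searched on both strands.
ADGRE3: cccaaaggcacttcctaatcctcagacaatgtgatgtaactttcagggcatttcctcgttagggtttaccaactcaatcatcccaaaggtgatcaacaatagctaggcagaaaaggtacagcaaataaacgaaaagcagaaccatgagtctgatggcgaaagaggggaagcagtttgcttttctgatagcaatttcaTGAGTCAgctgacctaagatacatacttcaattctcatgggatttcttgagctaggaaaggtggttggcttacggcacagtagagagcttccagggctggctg
ADGRE1: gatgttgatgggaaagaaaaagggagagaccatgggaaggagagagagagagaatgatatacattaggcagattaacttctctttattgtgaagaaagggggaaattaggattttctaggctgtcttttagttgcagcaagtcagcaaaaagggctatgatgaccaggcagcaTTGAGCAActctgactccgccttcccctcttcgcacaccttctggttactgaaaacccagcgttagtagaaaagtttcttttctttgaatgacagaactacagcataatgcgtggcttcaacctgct

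The ADGRE3 window holds 1 match to the AP-1-type motif TGANTCA, 53 bases before the start site, and the ADGRE1 window 1 match to the C/EBP-type motif TTGCNNAA on the opposite strand, 77 bases before it. The first motif was added to the search after the sequences had been read. It also occurs in 1 of 3 windows of ADGRG1, which was below the filter, with matches 192 and 113 bases before the start. Of 35116 promoter windows in the table, 7.71% hold the first and 10.5% the second. Neither printed window holds the PU.1-type motif GAGGAAG (13.6% of windows), the E-box CACGTG (7.26%) or TATAAA (11.5%). These motifs do not overlap each other in either window, and a match of letters is a description and not a binding site. The RefSeq start of ADGRE3 lies inside the longer GENCODE locus, so the window belongs to that start alone.

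The libraries' values were TPM multiplied by a factor that makes the spike-in rows sum to the same amount in every library. This factor was 0.832 to 1.03 in sgMETTL1.3 libraries and 1.13 to 1.23 in sgNS libraries, so the same data read lower or higher in sgMETTL1.3 cells depending on whether the factor is kept. Values below are on the spike-in scale unless TPM is named, and the TPM here has the factor undone and the spike-ins left out. Read depth is unknown. Of 12449 genes tested with limma, 6.4% were called higher and 49.3% lower in sgMETTL1.3 libraries, with a median log2 fold change of -0.32 (24.8% and 25.3% as TPM, median 0.015). METTL1 was lower in every sgMETTL1.3 library, at 8.28, 5.94 and 7.42, against 19.7, 22.0 and 20.3 in sgNS libraries (log2 fold change -1.41, limma adjusted p = 2.41e-06). WDR4, its partner in the enzyme, fell too (log2 fold change -1.16, limma adjusted p = 0.000178).

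Of the 7 receptors, 5 passed the filter on low values, which asked 3 or more of the 6 libraries to reach 1. ADGRE3 and ADGRE1 rose, ADGRE2 fell, and ADGRE5 and ADGRG5 were not called, against the 6.4% higher and 49.3% lower among all tested genes. The same 3 genes were those of the 5 whose groups did not overlap, against 8.66% of all tested genes for higher and 53.4% for lower. Since the set was built on this contrast, nothing is read from these counts. As TPM, 5 of 6 tested receptors were called higher (ADGRE1, ADGRE3, ADGRE5, ADGRG3 and ADGRG5) and none lower. Among all tested genes 24.8% were called higher and 25.3% lower as TPM. The same 5 receptors did not overlap between groups (30.9% of all tested genes higher, 32.1% lower). Of these 5, ADGRE3 and ADGRG3 had no sgNS library at 1 TPM and entered the test through the sgMETTL1.3 libraries alone, so neither the 5 nor the 6 is a count free of the outcome. Only ADGRE1 and ADGRE3 of the 7 were called on both scales in the same direction. The sum of the 7 values was 213 ± 32.1 in sgMETTL1.3 libraries and 196 ± 10.7 in sgNS libraries (SD, n = 3 each), and the 2 ranges overlapped.

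**Figure D1:**
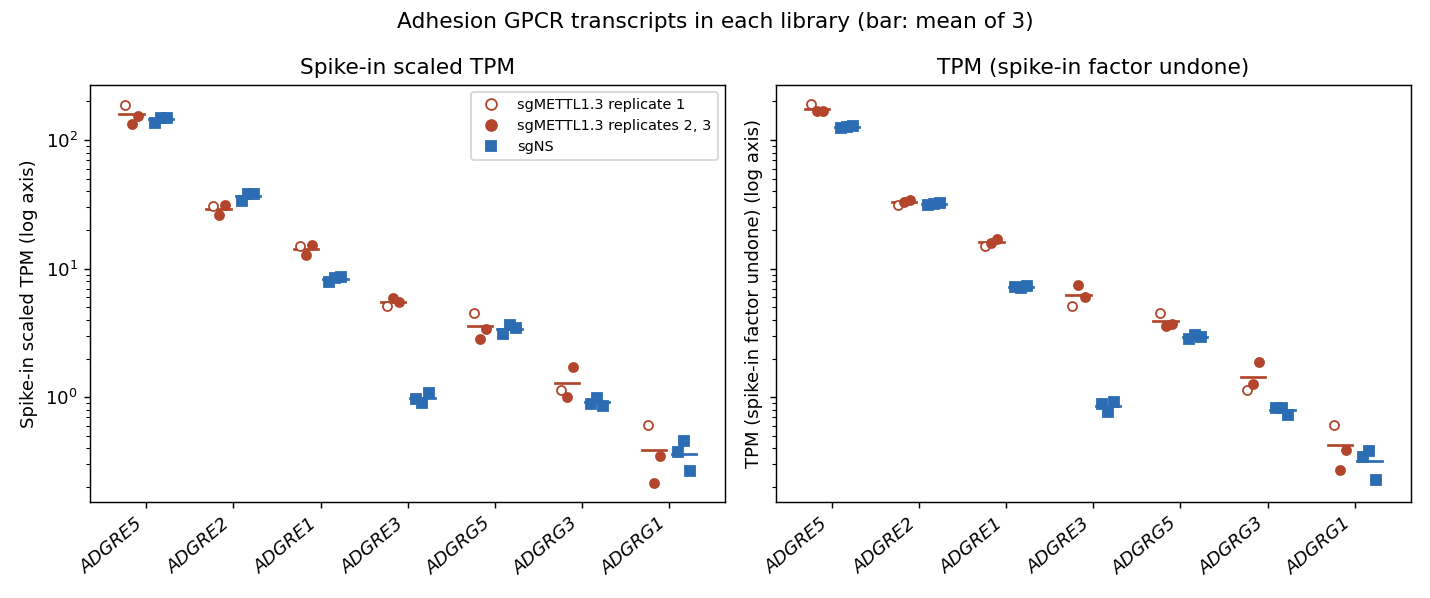
Values of the 7 receptors in each library on a log axis, as deposited on the spike-in scale (left) and as TPM (right), with sgMETTL1.3 libraries as circles (replicate 1 open), sgNS libraries as squares and a bar at each mean of 3. ADGRE3 sits between 5.09 and 5.91 in sgMETTL1.3 libraries and between 0.908 and 1.07 in sgNS libraries on the left, while ADGRE2 overlaps between the groups on the right.

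ADGRE3, a receptor known from neutrophils, monocytes and macrophages, had the highest fold change of the 7. Its values were 5.09, 5.91 and 5.52 in sgMETTL1.3 libraries, against 0.971, 0.908 and 1.07 in sgNS libraries. Every sgMETTL1.3 library lay above every sgNS library, and the mean was 5.59-fold higher (5.51 ± 0.406 and 0.985 ± 0.0840, SD, n = 3 each). The log2 fold change of value + 1 was 1.71 (SE 0.13), place 28 from the top of 12449 genes, and with a pseudocount of 0.1, which shrinks low genes less, it was 2.37 (place 26). With a pseudocount of 5, which shrinks low genes more, it was 0.81 (place 84). As TPM the values were 5.16, 7.44 and 6.06 in sgMETTL1.3 libraries, against 0.890, 0.764 and 0.919 in sgNS libraries, 7.26-fold higher in the mean. Only 1 of 3 sgNS libraries reached a value of 1, so the gene passed the filter mainly through the group in which it is high, and its test is no independent support. In control cells ADGRE3 lay above 1.37% of the tested genes by level, and in sgMETTL1.3 cells above 21.8%. The filter left few genes with a control mean under 1, so a mean of 0.985 lies at the floor of that set. Both places are a description and no support for the rise.

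ADGRE1 is the human counterpart of a widely used mouse macrophage marker and marks eosinophils in human blood. It had values of 14.9, 12.7 and 15.4 in sgMETTL1.3 libraries, against 7.83, 8.39 and 8.63 in sgNS libraries. The groups did not overlap, and the mean was 1.73-fold higher (14.3 ± 1.44 and 8.28 ± 0.414, SD, n = 3 each; log2 fold change 0.72, SE 0.120). As TPM the values were 15.1, 16 and 16.9 in sgMETTL1.3 libraries, against 7.17, 7.06 and 7.38 in sgNS libraries, 2.22-fold higher in the mean.

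ADGRE2, a myeloid receptor that binds chondroitin sulfate, ran the other way on the spike-in scale. Its values were 30.9, 26.1 and 31.1 in sgMETTL1.3 libraries, against 33.9, 38.2 and 38.0 in sgNS libraries. The groups did not overlap, but the log2 fold change of -0.31 (SE 0.112) was close to the median of all tested genes, -0.32. As TPM the groups overlapped, at 31.3, 32.9 and 34.2 in sgMETTL1.3 libraries, against 31.0, 32.2 and 32.5 in sgNS libraries, with a log2 fold change of 0.038 and no call. The call as lower was also lost with no filter on low values, with sgMETTL1.3 replicate 2 left out (-0.23), with sgNS replicate 2 left out (-0.28) and with sgNS replicate 3 left out (-0.29).

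ADGRE5, also called CD97, is found on most leukocytes and binds CD55, THY1 and chondroitin sulfate. It was the most abundant of the 7 in every library, with 189, 133 and 153 in sgMETTL1.3 libraries, against 137, 150 and 150 in sgNS libraries. On this scale the groups overlapped and the log2 fold change was 0.11 (SE 0.124). As TPM they did not overlap, at 192, 168 and 168 in sgMETTL1.3 libraries, against 125, 126 and 128 in sgNS libraries, with a log2 fold change of 0.47 (SE 0.067). The highest value on both scales was in sgMETTL1.3 replicate 1. Without that library the log2 fold change was -0.025 on the spike-in scale and 0.41 as TPM, and after a correction for transcript GC content it was -0.046 on the spike-in scale.

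ADGRG5, known from granulocytes, had low values of 4.49, 2.85 and 3.38 in sgMETTL1.3 libraries, against 3.11, 3.63 and 3.45 in sgNS libraries. The groups overlapped, with a log2 fold change of 0.042 (SE 0.15). As TPM it was called higher, at 4.55, 3.58 and 3.71 in sgMETTL1.3 libraries, against 2.85, 3.06 and 2.95 in sgNS libraries. Its highest value too came from sgMETTL1.3 replicate 1, and without that library the log2 fold change on the spike-in scale was -0.098. The longest transcripts of ADGRE5, ADGRG1, ADGRG3 and ADGRG5 had 56.6% to 58.5% GC, and those of ADGRE1, ADGRE2 and ADGRE3 47.4% to 49.1%. The part of GC content in these differences was not tested beyond the correction, which left ADGRE3 at 1.73 and ADGRE1 at 0.71.

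ADGRG3, a neutrophil receptor, and ADGRG1, also called GPR56, a marker of cytotoxic lymphocytes, did not pass the filter. ADGRG3 had 1.13, 0.998 and 1.72 in sgMETTL1.3 libraries, against 0.892, 0.982 and 0.857 in sgNS libraries, narrowly without overlap. It passed the filter as TPM, with 1.14, 1.26 and 1.89 in sgMETTL1.3 libraries, against 0.818, 0.826 and 0.733 in sgNS libraries, and was called higher there. No sgNS library reached 1, so it was tested as TPM only through the group in which it is high, and the call is no support for its direction. ADGRG1 stayed below 1 in every library, at 0.605, 0.216 and 0.351 in sgMETTL1.3 libraries, against 0.373, 0.454 and 0.266 in sgNS libraries, and the groups overlapped on both scales. At levels this low, with the depth unknown, a difference of its size cannot be judged.

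**Figure D2:**
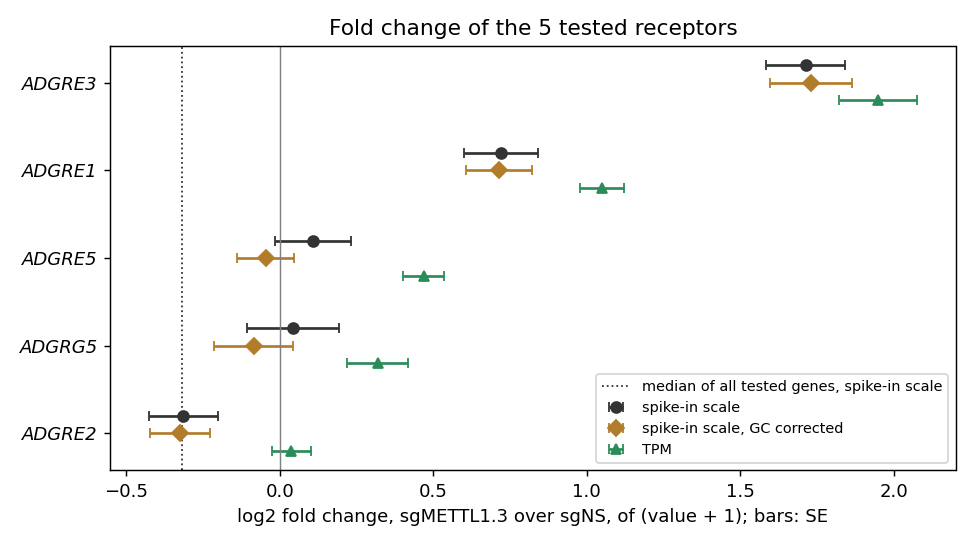
Log2 fold change, sgMETTL1.3 over sgNS, of value + 1 for the 5 receptors tested on the spike-in scale, with bars for the SE, on the spike-in scale, after GC correction and as TPM, and a dotted line at the median of all tested genes. ADGRE3 and ADGRE1 stay well to the right of 0 under all 3, while ADGRE5 and ADGRG5 lie near 0 on the spike-in scale and right of it as TPM.

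Values per length allow the receptors to be ordered within a group. In sgMETTL1.3 libraries the order of mean level was ADGRE5, ADGRE2, ADGRE1, ADGRE3, ADGRG5, ADGRG3 and ADGRG1, and no neighbours in it overlapped in range. In sgNS libraries ADGRG5 (3.40 ± 0.268, SD, n = 3) stood before ADGRE3, and ADGRE3 could not be separated from ADGRG3, whose ranges overlapped at 0.908 to 1.07 and 0.857 to 0.982. ADGRE5 made up 74.2 ± 2.24% of the summed level in sgMETTL1.3 libraries and 74.2 ± 0.203% in sgNS libraries (SD, n = 3 each). ADGRE2 made up 13.9 ± 1.19% in sgMETTL1.3 libraries and 18.7 ± 0.240% in sgNS libraries. The share of ADGRE1 was 6.78 ± 0.648% in sgMETTL1.3 libraries and 4.23 ± 0.0649% in sgNS libraries, and that of ADGRE3 was 2.65 ± 0.587% in sgMETTL1.3 libraries and 0.503 ± 0.0467% in sgNS libraries. ADGRE2 thus took the smaller share in sgMETTL1.3 cells, and ADGRE1 and ADGRE3 the larger.

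Ratios of receptors within a library do not depend on the spike-in factor. The ratio of ADGRE3 to ADGRE2 was 0.190 ± 0.0325 in sgMETTL1.3 libraries and 0.0269 ± 0.00274 in sgNS libraries (SD, n = 3 each). The ratio of ADGRE1 to ADGRE2 was 0.488 ± 0.00578 in sgMETTL1.3 libraries and 0.226 ± 0.00586 in sgNS libraries. The ratio of ADGRE5 to ADGRE2 was 5.38 ± 0.649 in sgMETTL1.3 libraries and 3.97 ± 0.0620 in sgNS libraries, and was highest in sgMETTL1.3 replicate 1. For all 3 ratios every sgMETTL1.3 library lay above every sgNS library. The 3 ratios share ADGRE2 as denominator, whose log2 fold change as TPM was 0.038. Of all tested genes, 30.9% were higher without overlap as TPM. Since the set was chosen by ADGRE3, nothing is read from this count.

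**Figure D3:**
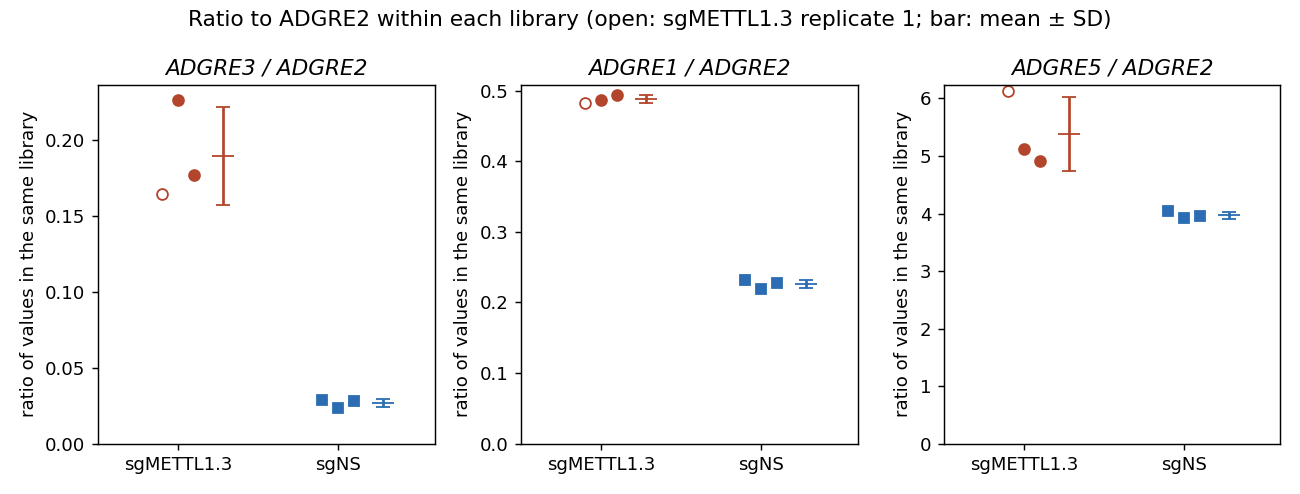
Ratio of ADGRE3, ADGRE1 and ADGRE5 to ADGRE2 in the same library, from 0, with sgMETTL1.3 as circles (replicate 1 open), sgNS as squares and the mean ± SD of 3 beside them. The ratio of ADGRE1 to ADGRE2 is 0.488 in the mean of sgMETTL1.3 libraries and 0.226 in that of sgNS libraries, with little spread in either.

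How far reads can be shared between these genes was read from the GENCODE transcripts. ADGRE2 and ADGRE5 have 482 words of 75 bases in common, 5.21% of the words of ADGRE2 and 8.44% of those of ADGRE5, with an identical run of 355 bases. Reads from that stretch could be assigned to either gene. The other 5 receptors share no 75-base word with any other annotated gene. The length of 75 bases was a chosen setting, and shorter shared stretches were not searched. On the opposite strand, exons of ZNF333 cover 15.7% of the exonic bases of ADGRE2 and 0.423% of those of ADGRE3, and whether reads were counted by strand is not stated in the labels or headers. ZNF333 had 4.94 ± 0.438 in sgMETTL1.3 libraries and 5.74 ± 1.08 in sgNS libraries (SD, n = 3 each) and was not called (log2 fold change -0.17, limma adjusted p = 0.332). Exons of other opposite-strand genes cover 3.21% to 4.68% of the exonic bases of ADGRE1, ADGRE5 and ADGRG3, and none of ADGRG1 or ADGRG5.

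Of 25 other adhesion GPCRs, 24 had a row, 7 passed the filter, and 6 were listed at 0 in all libraries. CELSR2, a planar polarity cadherin, was called higher, and ADGRA3, ADGRG2 and ADGRL1, a latrophilin, lower, 1 and 3 of 7 against 6.4% and 49.3% of all tested genes. CELSR2 had 10.0 ± 2.13 in sgMETTL1.3 libraries and 6.83 ± 0.487 in sgNS libraries (SD, n = 3 each), which was 0.48 on the log2 scale (limma adjusted p = 0.0133), and it lost the call without sgNS replicate 1 (limma adjusted p = 0.0536). ADGRA3 had 6.0 ± 0.372 in sgMETTL1.3 libraries and 12.7 ± 1.05 in sgNS libraries (SD, n = 3 each), which was -0.96 on the log2 scale (limma adjusted p = 2.25e-05). ADGRG2 (-0.50) and ADGRL1 (-0.45) were also called lower, the first reaching 1 in only 1 sgMETTL1.3 library and losing the call without sgNS replicate 3 and the second without sgMETTL1.3 replicate 2 or 3 or sgNS replicate 1 or 2. Of the 3, only ADGRA3 was called lower as TPM (-0.64), where ADGRB1, CELSR2 and CELSR3 were called higher. These were 1 and 3 of 7, against 25.3% lower and 24.8% higher of all genes tested as TPM. ADGRA2 was close to ADGRE5 in level, at 138 ± 36.9 in sgMETTL1.3 libraries and 149 ± 9.14 in sgNS libraries (SD, n = 3 each), and was not called (-0.14). Its direction and call turned on single libraries and on the scale, since it was called lower after GC correction (-0.35) and with sgMETTL1.3 replicate 1 removed (-0.34), and as TPM it had a log2 fold change of 0.22. ADGRB1, not called on the spike-in scale, had 18.9, 8.87 and 11.3 in sgMETTL1.3 libraries, with the high value in replicate 1, against 9.85, 10.8 and 10.0 in sgNS libraries. Without that library its log2 fold change was -0.028. CELSR3, another planar polarity cadherin, had 7.95 ± 1.71 in sgMETTL1.3 libraries and 6.27 ± 0.151 in sgNS libraries (SD, n = 3 each) and was called only without sgMETTL1.3 replicate 2 (0.40) when values stayed on the spike-in scale.

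**Figure D4:**
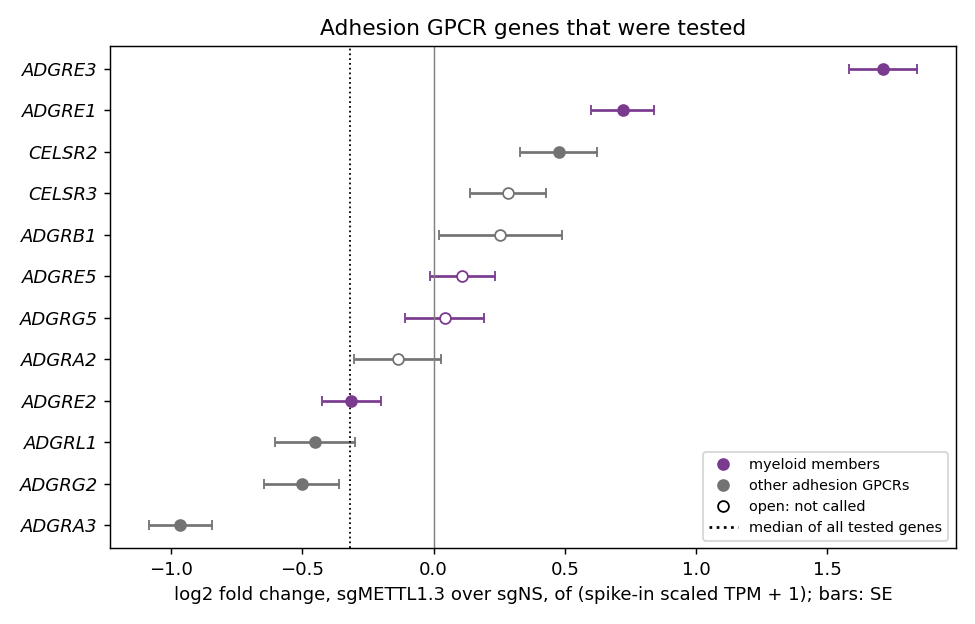
Log2 fold change of value + 1 on the spike-in scale, sgMETTL1.3 over sgNS, for the 12 adhesion GPCRs tested, with bars for the SE, filled points for genes called by limma and a dotted line at the median of all tested genes. ADGRE3 (1.71) and ADGRE1 (0.72) lie at the top and ADGRA3 (-0.96) at the bottom.

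Ligands of the receptors, and the enzymes that make a ligand, held genes called in either direction, depending on the scale. Of 6 tested ligands and membrane partners, 1 was called higher, 2 lower and 3 did not pass, against 6.4% higher and 49.3% lower among all tested genes. Their median log2 fold change was -0.17, against -0.32 for all tested genes. As TPM 3 were higher and 1 lower, against 24.8% and 25.3% of all tested genes. CD55, the ligand of ADGRE5, had 52.3 ± 3.26 in sgMETTL1.3 libraries and 60.0 ± 3.58 in sgNS libraries (SD, n = 3 each) and did not pass (limma adjusted p = 0.123). ITGAV, the integrin alpha-V chain, fell to 4.44 ± 0.791 in sgMETTL1.3 libraries, against 12 ± 0.357 in sgNS libraries (SD, n = 3 each), or -1.26 on the log2 scale (limma adjusted p = 5.57e-06). CD9, a tetraspanin, fell (-0.48) on the spike-in scale, but was not called without sgNS replicate 2 (-0.38) or as TPM (-0.13). PLXDC1, a membrane protein whose link to these receptors is uncertain, was the gene called higher (0.44). All its sgNS values were below 1, so it entered the test only through the group in which it is high, and it dropped below the filter once any 1 sgMETTL1.3 library was removed and lost the call without sgNS replicate 1. The ADGRG1 ligands COL3A1 and TGM2 did not pass the filter.

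Chondroitin sulfate synthesis, which makes a ligand of ADGRE2 and ADGRE5, had 6 of 16 tested genes lower and none higher (median -0.10; 4 lower and 4 higher as TPM). CSGALNACT2, an enzyme that starts and extends the chains, had 68.8 ± 7.25 in sgMETTL1.3 libraries and 148 ± 9.52 in sgNS libraries (SD, n = 3 each), or -1.10 on the log2 scale (limma adjusted p = 3.42e-06). The sulfotransferases CHST11 (-0.93) and UST (-0.63) fell on both scales, and CHSY1, a chain-building synthase, fell (-0.58) without passing as TPM. Among all tested genes 49.3% were called lower and 6.4% higher, with a median of -0.32 (25.3% lower and 24.8% higher as TPM).

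G protein subunits had 10 of 18 tested genes lower and 1 higher, with a median of -0.38 (3 lower and 4 higher as TPM). This was near the background of 49.3% lower and 6.4% higher, with a median of -0.32 (25.3% and 24.8% as TPM). GNG7, a gamma subunit, rose to 21.0 ± 4.42 in sgMETTL1.3 libraries, against 9.77 ± 1.04 in sgNS libraries (SD, n = 3 each), or 1.02 on the log2 scale (limma adjusted p = 9.93e-05). GNB4, a beta subunit, fell (-1.38), as did GNAI3, an inhibitory alpha subunit (-0.99), and the gamma subunit GNG2 (-0.92), all 3 also as TPM, while GNG12 (-0.58) was not called there.

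Genes within 200 kb of the receptor loci moved in both directions. Around ADGRE2, ADGRE3 and ADGRE5, 1 of 8 tested neighbours was higher and 2 lower (2 and 0 as TPM), against 6.4% and 49.3% of all tested genes (24.8% and 25.3% as TPM). GIPC1, a scaffold protein gene, had 86.9 ± 21.9 in sgMETTL1.3 libraries and 43.1 ± 2.22 in sgNS libraries (SD, n = 3 each), or 0.97 on the log2 scale (limma adjusted p = 0.000576), and the 2 lower ones were the chaperone gene DNAJB1 (-0.43) and ADGRL1. Around ADGRE1, TRIP10 was higher (0.31, limma adjusted p = 0.0496) and VAV1 lower (-0.35) of 6 tested, while as TPM 5 were higher and 0 lower. TRIP10 lost its call with any library but sgMETTL1.3 replicate 2 left out, and VAV1 with sgMETTL1.3 replicate 3, sgNS replicate 2 or sgNS replicate 3 left out, and VAV1 was at 0.0083 as TPM. Around the chromosome 16 receptors 4 of 7 were lower, among them COQ9 (-0.55), DOK4 (-0.44) and POLR2C (-0.26), and none higher (2 lower and 0 higher as TPM). POLR2C lost its call with any library but sgMETTL1.3 replicate 1 left out and was at 0.10 as TPM, and DOK4 lost its call without sgNS replicate 3.

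The pattern of ADGRE3 over the 6 libraries was close to that of ZNF776, FBXO32, SLAMF7 and GPNMB, 4 of the 5 most alike by Pearson's r of log2(value + 1) among 9349 protein-coding genes with a mean of at least 5. The values of r ran from 0.985 for GPNMB to 0.994 for ZNF776, and 84 genes had one above 0.95. The 6 libraries fall into 2 groups, so this likeness mostly restates the difference between the guides and is given with no p. SLAMF7, a receptor of lymphoid and myeloid cells, had 40.8 ± 2.63 in sgMETTL1.3 libraries and 15.2 ± 0.713 in sgNS libraries (SD, n = 3 each).

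Markers of cells in which the receptors are known were checked beside these values. Of 12 monocytic markers 11 passed the filter, 8 of them lower and none higher (5 lower and 2 higher as TPM), against 49.3% lower and 6.4% higher of all tested genes (25.3% and 24.8% as TPM), with a summed level of 1586 to 2089 in sgMETTL1.3 libraries and 2103 to 2257 in sgNS libraries. The 8 lower ones were FCGR1A, ANPEP, CD33, FCER1G, CSF1R, ITGAM, CD4 and TYROBP. CD68, ITGB2 and SPI1 were expressed and not called, and CD14 stayed below 1 in all libraries. Of 9 neutrophil markers 5 passed, LTF higher (tested only through the sgMETTL1.3 libraries, with all sgNS values below 1) and MMP8 lower, with a sum of 56.3 to 69.6 in sgMETTL1.3 libraries and 69.6 to 73.8 in sgNS libraries, and OLFM4 at 0. Of 8 eosinophil markers 1 passed, with a sum of 2.14 to 3.63 in sgMETTL1.3 libraries and 3.78 to 4.85 in sgNS libraries, and CLC at 0. Of 10 markers of natural killer and T cells 3 passed, CD2 higher, NKG7 and KLRF1 lower, with a sum of 163 to 245 in sgMETTL1.3 libraries and 308 to 343 in sgNS libraries, and CD3D, CD3G and KLRD1 at 0. Of 5 B cell markers 3 passed, PAX5 lower, with a sum of 6.31 to 11 in sgMETTL1.3 libraries and 7.85 to 10.1 in sgNS libraries, and MS4A1 at 0. None of 7 erythroid and platelet markers passed, with sums of 0.180 to 0.408 in sgMETTL1.3 libraries and 0.169 to 0.331 in sgNS libraries. Of 8 epithelial and stromal markers 2 passed, COL1A1 higher and PECAM1 lower, with a sum of 35.9 to 40.2 in sgMETTL1.3 libraries and 46.0 to 49.8 in sgNS libraries. All sums here, and the calls not given as TPM, carry the spike-in factor, with which the median tested gene read lower (-0.32). Among neutrophil markers 2 were higher and none lower as TPM, so MMP8 was not called lower there. Natural killer and T cell markers and B cell markers each had 1 higher and 1 lower as TPM. Of 3 epithelial and stromal markers tested as TPM, 2 were higher and none lower, so PECAM1 was not called lower. Of 2 eosinophil markers tested as TPM none was called. All libraries came from 1 clone of U-937, and the lists name genes known from these cell types. What part differences in state among the cells of this line have in the receptor values was not tested. In bulk RNA more cells with a transcript cannot be told apart from more transcript per cell.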

How the data were processed

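The values are a deposited signal per gene symbol. Per the submitters' processing notes cutadapt, STAR and RSEM were used with the builds GRCh38 and hg38; their versions, the annotation and the strand setting are not stated there. Read from the values, the authors' deposited signal is TPM times a factor of each library that brings the sum of its 92 ERCC spike-in rows to 38252. All 43490 values above 0 and under 5 were whole multiples, within 0.01 of a step, of 0.01 TPM times that factor. The steps come from rounded TPM, hence read depth cannot be recovered and counting error is not stated.

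Rows of 28 date-like names were kept as deposited. Genes that reached 1 in 3 or more of the 6 libraries were fitted on log2(value + 1) with limma 3.58.1 (R 4.3.3; trend, robust, group only), with Benjamini-Hochberg adjustment over all of them and calls at 0.05. Fold changes on this scale understate the change of low genes. The fit was tested on simulated data. The design named a branch for counts, which was not needed.

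The members and gene lists were chosen with earlier results of these data known. Named genes were the 7 receptors, METTL1, WDR4, each tested adhesion GPCR, up to 4 called members of each list per direction by p, the 5 genes most like ADGRE3 and called neighbours within 200 kb. GC content, available for 94.3% of tested genes, came from the longest GENCODE transcript. The GC correction was a loess curve (span 0.3) per library. Alternatives were other scalings, pseudocounts, filters, a fit without trend, a replicate block, the GC correction and each library left out. Results of 1 gene list of the design and of single genes that the rule named are not reported here.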

Additional observations from a re-analysis of the deposited data

How the results depend on the processing

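ADGRE1 and ADGRE3 kept their direction and call under every alternative that tested them, from 0.54 (pseudocount 5) to 1.09 (TPM without sgMETTL1.3 replicate 1) for ADGRE1 and from 0.81 (pseudocount 5) to 2.37 (pseudocount 0.1) for ADGRE3. ADGRE3 was not tested with a mean of at least 5, nor as TPM without sgMETTL1.3 replicate 1. The set was chosen by the rise of ADGRE3 in these same libraries, so the kept calls are a description and no independent support. Of 32 named genes other than METTL1, 14 kept direction and side in all alternatives that tested them. Among all tested genes 24.8% were called higher and 25.3% lower as TPM. Receptors called higher numbered 5 as TPM, 5 with median-ratio rescaling and 1 where the mean had to reach 5, which fewer receptors did. Receptors called lower numbered 0 as TPM, with median ratios, with no filter and as TPM without sgMETTL1.3 replicate 1. With each library left out they numbered 2 to 2 higher and 0 to 1 lower.

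As TPM and with median ratios, log2 fold changes reversed for ADGRE2 (0.038 and 0.040), ADGRA2 (0.22 and 0.22), VAV1 (0.0083 and 0.010) and POLR2C (0.10 and 0.11), and as TPM without sgMETTL1.3 replicate 1 for ADGRE2 (0.070), ADGRA2 (0.088) and POLR2C (0.14). They reversed with the GC correction, with and without the block, for ADGRE5 (-0.046), ADGRG5 (-0.085) and ADGRB1 (-0.057). Leaving out 1 library gave -0.025 to 0.23 for ADGRE5, -0.098 to 0.16 for ADGRG5 (-0.0064 without sgNS replicate 1), -0.34 to 0.0089 for ADGRA2, -0.028 to 0.48 for ADGRB1 and -1.50 to -1.29 for METTL1. TPM puts the median over all genes at 0.015. The cause of the other changes was not tested.

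Counts higher and lower as TPM were 3 and 1 for other adhesion GPCRs and 3 and 1 for ligands and partners. They were 4 and 4 for chondroitin sulfate synthesis and 4 and 3 for G proteins. Among all tested genes 24.8% were higher and 25.3% lower as TPM, and shares in the other settings are not given. With median ratios the counts were 3 and 1, 3 and 1, 3 and 5, and 4 and 3, in the same order. As TPM without sgMETTL1.3 replicate 1 they were 4 and 2 for other adhesion GPCRs and 3 and 1 for ligands. For chondroitin sulfate they were 7 and 6, and for G proteins 6 and 6. With the GC correction 1 chondroitin sulfate gene was higher and 9 lower, and with the block added 1 and 8. With the GC correction and the block, 0 other adhesion GPCRs were higher and 4 lower. With a mean of at least 5, 0 ligands were higher and 2 lower. Leaving out 1 library gave 0 to 2 higher and 2 to 4 lower for other adhesion GPCRs, 0 to 1 and 1 to 3 for ligands, 0 and 5 to 9 for chondroitin sulfate and 1 and 9 to 12 for G proteins.

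Replicate numbers did not pair the libraries: same-numbered deviations correlated at -0.0137, 0.0046 and -0.0385. With the replicate block 2 receptors were higher and 0 lower, and 1 chondroitin sulfate gene was higher and 6 lower.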
